A study of Mus musculus with 16 samples.

Results

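The 46 genes described here encode the protein scaffold of the skeletal muscle sarcomere and the dystrophin complex that ties it to the cell membrane. They were taken by gene symbol from a list of 46, and all 46 were found among the 45706 genes of the table. All 46 also passed the low-count filter, which left 13792 genes for testing. Polyadenylated RNA of quadriceps muscle was sequenced in 16 libraries, 8 from mice that lack Nampt in skeletal muscle (KO) and 8 from wild-type controls (WT). Nampt encodes the rate-limiting enzyme of NAD salvage, and the study's title is about NAD loss in muscle and muscle ageing. The driver of the knockout, the strain, the sex and the age of the mice were not given in the sources used here, and no treatment is named for either genotype. The labels name separate samples without saying that each came from its own animal, so the p-values cover only sample-to-sample spread, which may be technical.

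A sarcomere is built from thin actin filaments anchored in the Z disc and thick myosin filaments cross-linked in the M band. Titin spans from the Z disc to the M band, nebulin runs along the thin filament, and capping proteins, tropomodulins and leiomodins control the ends of the thin filament. The intermediate filament protein desmin links neighbouring Z discs, and at the membrane dystrophin joins the actin cytoskeleton to dystroglycan and the sarcoglycans, a link whose loss causes muscular dystrophy. Several of these proteins come in pairs of which 1 is used mainly in fast fibres, while the other may be used in slow or in all fibres.

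Nampt lay between 60.4 and 88.7 CPM in KO (median 74.7) and between 125.5 and 161.1 CPM in WT (median 141.1), where CPM is the usual read count unit, adjusted here for library size with TMM factors. Library depth was 16065394 to 51881258 estimated counts. Together the 46 genes held 7.51% to 8.84% of all counts in KO and 7.67% to 8.74% in WT. The defining markers of skeletal muscle fibres were abundant, with 10 of them summing to 121440 to 142962 CPM in KO and 126788 to 149353 CPM in WT. Among 6 markers of heart muscle, Tnni3, Mybpc3, Myl7 and Nppa stayed under 1 CPM in every library, while Myh6 lay between 1.46 and 7.11 CPM and Tnnt2 between 1.28 and 10.7 CPM over the 16 libraries. KO libraries 1, 3, 5 and 8 held 24.8 to 40.4 CPM (by library totals) from 3 abundant RNAs without a poly(A) tail (Rn7sk, Rmrp and Rpph1), against 1.23 to 17.4 in the other 12 libraries. A lower level in whole tissue can come from fewer cells of a type or from less RNA per cell, and these cannot be told apart here.

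Upstream sequences are shown for 4 members that the results below turn on. Acta1 is the most abundant of the 46 per length, and Capza2 is the member with the smallest p. Mybpc2 and Mybpc1 are paralogs, by name the fast and the slow myosin-binding protein C. Each sequence is the 250 bases before the RefSeq start site (GRCm38.p6), 5′ to 3′ on the gene's strand. The positions are chr8:123894776-123895025 (minus) for Acta1, chr6:17636760-17637009 (plus) for Capza2, chr7:44524670-44524919 (minus) for Mybpc2 and chr10:88605153-88605402 (minus) for Mybpc1. Capitals mark E-boxes (CANNTG, the core bound by myogenic factors) and the CArG box (the core bound by serum response factor), searched on both strands. The Capza2 window lies inside that gene's span in GENCODE vM21, which begins further upstream, at 17636234.
Acta1: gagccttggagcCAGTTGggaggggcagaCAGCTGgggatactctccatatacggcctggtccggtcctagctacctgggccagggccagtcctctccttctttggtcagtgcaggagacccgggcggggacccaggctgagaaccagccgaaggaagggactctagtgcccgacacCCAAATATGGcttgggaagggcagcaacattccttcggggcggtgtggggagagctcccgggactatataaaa
Capza2: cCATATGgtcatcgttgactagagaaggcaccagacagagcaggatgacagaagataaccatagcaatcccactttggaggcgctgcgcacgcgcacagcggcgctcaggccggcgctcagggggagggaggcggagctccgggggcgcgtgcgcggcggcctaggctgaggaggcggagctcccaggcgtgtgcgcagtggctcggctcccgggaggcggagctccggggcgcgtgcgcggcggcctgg
Mybpc2: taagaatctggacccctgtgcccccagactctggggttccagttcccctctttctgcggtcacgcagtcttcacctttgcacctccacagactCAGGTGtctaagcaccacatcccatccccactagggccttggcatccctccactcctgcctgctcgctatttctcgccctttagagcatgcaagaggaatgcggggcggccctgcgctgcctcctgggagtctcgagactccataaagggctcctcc
Mybpc1: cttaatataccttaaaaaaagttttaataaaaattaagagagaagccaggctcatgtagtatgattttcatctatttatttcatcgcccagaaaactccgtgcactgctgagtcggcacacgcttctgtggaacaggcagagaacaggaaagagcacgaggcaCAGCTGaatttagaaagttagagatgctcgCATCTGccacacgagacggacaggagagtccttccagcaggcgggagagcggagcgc
The Acta1 window holds 2 E-boxes and 1 CArG box, the Mybpc1 window 2 E-boxes, and the Capza2 and Mybpc2 windows 1 E-box each. No marked motif shares bases with another, and a search for the MEF2 site found 0 matches in these 4 windows. The RefSeq table held 44 promoters of 36 of the 46 genes, some of them overlapping. An E-box was in 75% of the 44 and in 66.2% of all 32851 promoters of the table. The CArG box was in 6 of the 44 (13.6%) against 1.47% of all, and the MEF2 site in 6 of the 44 (13.6%) against 2.92% of all. These matches describe the letters of the windows and were not tested as binding sites.

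The members spanned more than 4 orders of magnitude per length. In WT, Acta1, the actin of the adult thin filament, had a mean of 16570 CPM per kb of merged exons. It was followed by Actn3, the fast-fibre α-actinin of the Z disc (2922 CPM per kb), Mybpc2, the fast myosin-binding protein C (1719), and Tcap, the titin cap (1408). Des, which encodes desmin, had 857 CPM per kb and Myoz1, a calsarcin of fast fibres, 762. At the other end stood Sgcd, a sarcoglycan (0.728 CPM per kb), Utrn, the dystrophin-related utrophin (2.04), and Dmd, dystrophin itself (2.85). Merged exons include those of rare isoforms, so genes with many alternative exons, such as Dmd, come out low on this scale. Before scaling by length, Ttn, the titin gene, was second to Acta1, with 11679 ± 2351 CPM in WT and 12613 ± 1954 CPM in KO (SD, n = 8 per group).

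**Figure D1:**
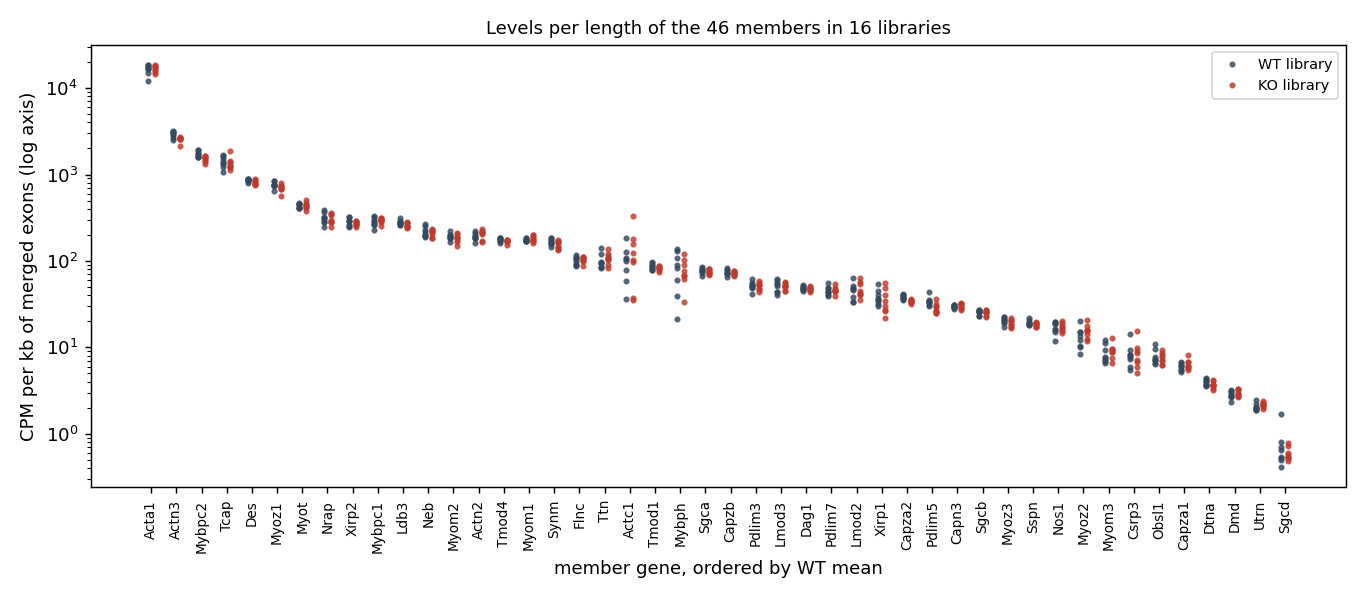
Levels of the 46 members per kb of merged exons (log axis), ordered by the WT mean, with 1 point per library for 8 WT and 8 KO libraries. Points of both genotypes overlap in every gene, from Acta1 at 16570 CPM per kb in WT down to Sgcd at 0.728, and Actc1, Mybph and Sgcd spread widest on the log scale in WT.

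None of the 46 members was called changed in KO: 0 passed at a Benjamini-Hochberg adjusted p under 0.05 with edgeR's quasi-likelihood test, against 0.0435% of all tested genes (6 of 13792). DESeq2 called 1 of the 46, Capza2, against 1.04% of the 9246 genes for which it gave an adjusted p, and limma called 0, against 0.0363%. At an unadjusted p under 0.05 with edgeR there were 5 members (10.9%), close to the 9.57% of all tested genes. These were Capza2, Pdlim5, Actn3, Mybpc2 and Ldb3. All 5 were lower in KO, where 5.55% of all genes were lower at that p and 4.02% higher. DESeq2 and limma each also gave 5 members at an unadjusted p under 0.05, and without KO libraries 1, 3, 5 and 8 edgeR gave 7, with 0 called. The share of all genes at that p in these other fits is not given here, so these counts cannot be set against a background. Of the 46, 28 had log2 fold changes below 0 and 18 above, with a median of -0.04, while the median of all tested genes was 0.00. The KO and WT values overlapped in all 46 members, while 0.123% of all genes had groups that did not overlap.

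The data bound most members tightly. For 43 of the 46 the 95% interval kept KO within 1.5-fold of WT, and 86.2% of the 13792 genes had such an interval. The exceptions were Actc1, Mybph and Sgcd, which varied widely between libraries or were weakly expressed. KO was between 95.6% and 107.7% of WT for Capn3, a muscle calpain that binds titin, between 93.3% and 105.0% for Dag1, the dystroglycan gene, and between 89.6% and 101.1% for Des.

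**Figure D2:**
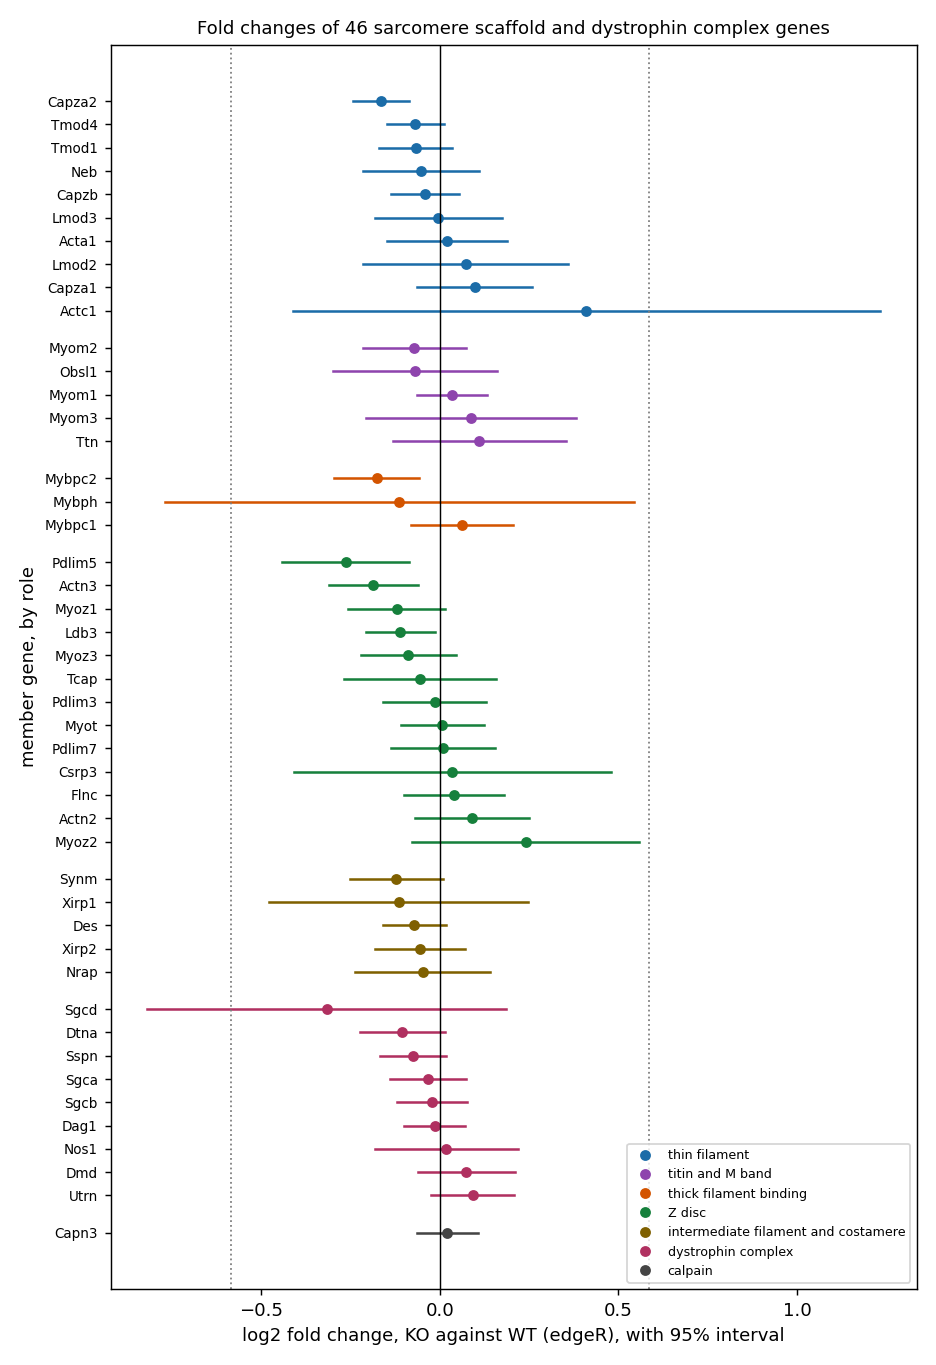
Log2 fold changes of the 46 members, KO against WT, as points with 95% intervals, grouped by role. Dotted lines mark a 1.5-fold change in either direction; 43 intervals lie between them, and those of Actc1, Mybph and Sgcd cross a line.

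Thin filament genes numbered 10. Acta1 lay between 22107 and 28007 CPM in KO (median 26465) and between 18451 and 28558 CPM in WT (median 26236). Its groups overlapped almost fully, with a log2 fold change of 0.02 (standard error 0.08). The fold change turned to -0.03 on the log2 scale without WT library 3. The estimated counts of Acta1 were not whole numbers in 16 of 16 libraries, as happens where reads are shared between genes. Neb, the nebulin gene, had 5605 ± 512 CPM in KO and 5812 ± 779 in WT (SD, n = 8 per group), a log2 fold change of -0.05.

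Capza2 encodes an α-subunit of CapZ, which caps the barbed end of the thin filament at the Z disc. It lay between 189.1 and 215.5 CPM in KO (median 202.9) and between 210.8 and 243.6 CPM in WT (median 224.1). All 8 KO libraries were below the WT mean, and the groups overlapped only at their edges. KO stood at 89.3% of WT (95% interval 84.6% to 94.3%), a log2 fold change of -0.16 (standard error 0.04). It did not pass with edgeR (adjusted p = 0.141) or limma (0.135) and passed with DESeq2 (0.00292); the 26 other fits gave it adjusted p between 0.00292 and 0.419. In GRCm38, Capza2 (ENSMUSG00000015733) is on chromosome 6, plus strand, 17636234 to 17666972, and no other gene's exons overlap its own. Capza1, the other α-subunit, had a log2 fold change of 0.10 at 24.2 ± 3.24 CPM in KO and 22.5 ± 2.17 in WT, and Capzb, the β-subunit, -0.04 at 238.1 ± 10.9 and 245.0 ± 17.7 (SD, n = 8 per group). The difference between subunits was not tested. Counts of Capza1 were not whole in 16 of 16 libraries.

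At the pointed end, Tmod4, the tropomodulin of skeletal muscle, had a log2 fold change of -0.07, with 8 of 8 KO libraries below the WT mean (288.9 ± 12.8 CPM in KO, 302.8 ± 14.5 in WT; SD, n = 8 per group; edgeR adjusted p = 0.606). Tmod1 had the same log2 fold change of -0.07 (adjusted p = 0.712). Exons of Tstd2 on the opposite strand, itself at a mean of 12.3 CPM, cover 32.6% of Tmod1's. The strand setting of the counting was not given in the sources used here, so how reads from those bases were assigned is not known. Counts of Tmod1 were not whole in 0 of 16 libraries. The leiomodins Lmod2 and Lmod3, which elongate thin filaments, had log2 fold changes of 0.07 and -0.00.

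Actc1, the actin of the embryonic and heart sarcomere, had the widest spread of the 46 in KO. It lay between 57.4 and 530.9 CPM in KO (median 182.7) and between 58.4 and 295.4 CPM in WT (median 164.6). KO library 4 and WT library 4 held the highest values of their groups, and KO library 7 and WT library 1 the lowest. The log2 fold change was 0.41 (standard error 0.39) and an interval from -0.41 to 1.23, and it was 0.07 without KO library 4. Heart muscle markers summed to 4.21 to 8.93 CPM in KO and 2.93 to 12.8 CPM in WT. Of these, Tnnt2 was also highest in KO library 4 (5.35 CPM) and WT library 4 (10.7 CPM). Myh6 was instead highest in KO library 5 (7.11 CPM) and WT library 1 (4.77 CPM), and so was Tnni3, at 0.235 and 0.201 CPM. The part of heart muscle in the level of Actc1 was not tested.

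Titin and the M band genes, 5 in all, gave 0 members at an unadjusted p under 0.05. Ttn lay between 9787 and 15996 CPM in KO (median 12529) and between 9583 and 16292 CPM in WT (median 10993). The highest value in each genotype was that of library 8, as it was for Neb. The RNA integrity number (RIN) was 8.2 in WT library 8, the lowest of all libraries. It was 8.4 in KO library 8, the lowest of KO together with KO library 7, and reached 8.8 at most. The part of RNA integrity in the level of Ttn was not tested. The log2 fold change was 0.11 (standard error 0.11) and turned to -0.03 without KO libraries 1, 3, 5 and 8. Myom1 and Myom2, the myomesins that cross-link myosin in the M band, had log2 fold changes of 0.03 and -0.07, with 1882 ± 145 and 1631 ± 182 CPM in KO and 1838 ± 68.5 and 1713 ± 144 in WT (SD, n = 8 per group). Myom3, a myomesin of slow and intermediate fibres, had 0.09, and Obsl1, an obscurin-like cytoskeletal adaptor, -0.07.

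Among 3 myosin-binding genes, Mybpc2 was lower in KO at an unadjusted p under 0.05. It lay between 4793 and 5866 CPM in KO (median 5663) and between 5687 and 6944 CPM in WT (median 6141). All 8 KO libraries were below the WT mean, and the top of the KO range overlapped the bottom of the WT range. The log2 fold change was -0.18 (standard error 0.06), KO at 88.5% of WT (95% interval 81.4% to 96.1%, edgeR adjusted p = 0.296). Mybpc1, its paralog named the slow myosin-binding protein C, had a log2 fold change of 0.06. It stood at 1336 ± 86.9 CPM in KO and 1279 ± 153 in WT (SD, n = 8 per group). Mybph, a related protein, varied most of the 46 in WT, from 49.2 to 319.6 CPM (median 202.2), and from 77.6 to 281.2 CPM in KO (median 170.9). WT library 1 was its lowest and WT library 4 its highest. Its log2 fold change was -0.11 (standard error 0.31) and turned to 0.03 without WT library 4. Exons of Adora1 on the opposite strand, itself at a mean of 1.07 CPM, cover 49.9% of Mybph's.

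The Z disc was described by 13 genes, 3 of them lower in KO at an unadjusted p under 0.05, as were 5.55% of all tested genes. Whether this count stands apart from other genes was not tested. Actn3 lay between 6257 and 7876 CPM in KO (median 7572) and between 7202 and 9257 CPM in WT (median 8734). All 8 KO libraries were below the WT mean, and WT libraries 1 and 2 lay within the KO range. The log2 fold change was -0.19 (standard error 0.06), KO at 87.9% of WT (95% interval 80.7% to 95.9%, edgeR adjusted p = 0.296). Actn2, the α-actinin of all fibres, had a log2 fold change of 0.09, at 775.5 ± 91.5 CPM in KO and 727.9 ± 74.5 in WT (SD, n = 8 per group). Counts of both were not whole in 7 of 16 libraries. Actn3 (ENSMUSG00000006457) spans 4861216 to 4877909 on the minus strand of chromosome 19, and Mybpc2 (ENSMUSG00000038670) 44501699 to 44524656 on the minus strand of chromosome 7.

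Pdlim5 and Ldb3 encode PDZ and LIM domain proteins that bind α-actinin. Pdlim5 lay between 220.6 and 324.6 CPM in KO (median 245.3) and between 269.9 and 391.0 CPM in WT (median 298.4). In 7 of 8 KO libraries it was below the WT mean, and KO library 2 was the exception. Its log2 fold change was -0.26 (standard error 0.08) (KO at 83.3% of WT, 95% interval 73.7% to 94.2%, edgeR adjusted p = 0.296). Without KO libraries 1, 3, 5 and 8 it was -0.18 at an unadjusted p of 0.0892. Ldb3 lay between 1478 and 1720 CPM in KO (median 1549) and between 1592 and 1941 CPM in WT (median 1683). Its log2 fold change was -0.11 (standard error 0.05, edgeR adjusted p = 0.440), and -0.10 at an unadjusted p of 0.137 without those 4 libraries. The related genes Pdlim3 and Pdlim7 had log2 fold changes of -0.01 and 0.01. Pdlim5 (ENSMUSG00000028273) is at 142239590 to 142395696 on chromosome 3 and Ldb3 (ENSMUSG00000021798) at 34526603 to 34588682 on chromosome 14, both on the minus strand.

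**Figure D3:**
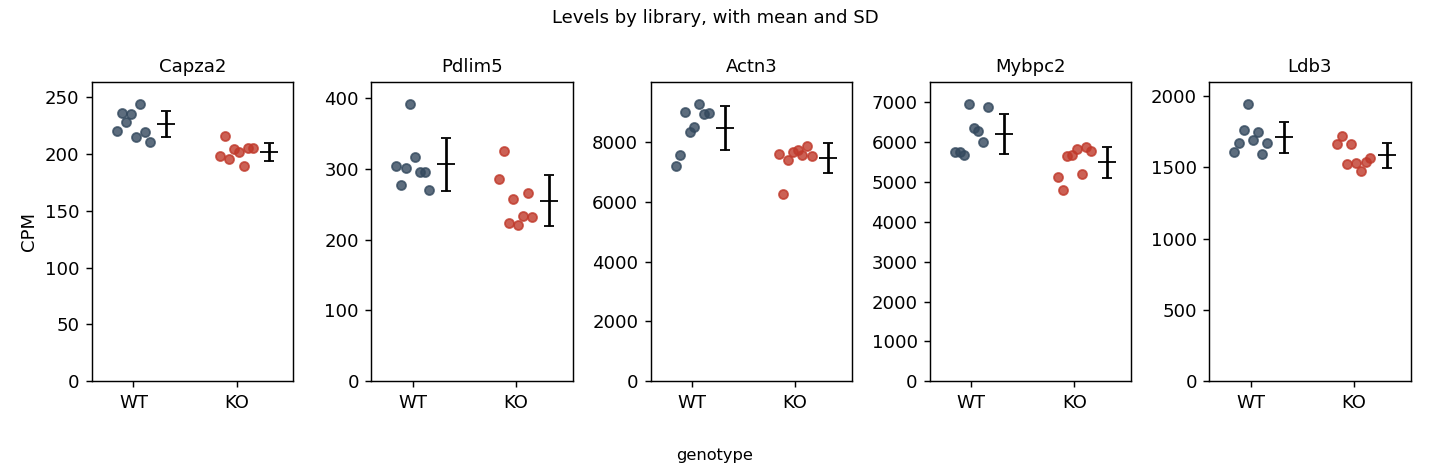
CPM by library (1 point each) with the mean and SD beside them, for the 5 members at an unadjusted p under 0.05. Capza2, Actn3 and Mybpc2 have 8 of 8 KO libraries below the WT mean and Pdlim5 and Ldb3 7 of 8, and in each gene the groups overlap.

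The calsarcins tether calcineurin to α-actinin. Myoz1, of fast fibres, had a log2 fold change of -0.12 (1326 ± 129 CPM in KO, 1441 ± 118 in WT) and Myoz3 -0.09, while Myoz2, of slow fibres, had 0.24 (53.1 ± 9.75 and 45.0 ± 12.7; SD, n = 8 per group). The edgeR adjusted p of these 3 were 0.591, 0.712 and 0.665. Tcap had a log2 fold change of -0.06 and Csrp3, the muscle LIM protein tied to mechanical strain, 0.04. Csrp3 lay between 13.4 and 41.6 CPM in KO (median 21.1) and between 14.7 and 37.8 CPM in WT (median 21.2). In both genotypes a single library lay far above the rest, KO library 6 and WT library 7, and the log2 fold change of Csrp3 turned to -0.15 without the former and was 0.19 without the latter. The same KO library 6 had the highest KO value of Tcap (1757 CPM). The structural genes Myot (myotilin) and Flnc (filamin C) had log2 fold changes of 0.01 and 0.04.

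All 5 genes of intermediate filaments and costameres had log2 fold changes below 0, between -0.12 and -0.05, with 0 at an unadjusted p under 0.05 (48.2% of all tested genes were below 0). Des lay between 2856 and 3343 CPM in KO (median 3017) and between 2960 and 3363 CPM in WT (median 3243), with a log2 fold change of -0.07. Synm, whose product synemin pairs with desmin, had -0.12 (1223 ± 119 CPM in KO, 1330 ± 106 in WT; SD, n = 8 per group; edgeR adjusted p = 0.561). Of the actin-binding Xin-repeat genes Xirp2 had -0.06 and Xirp1 -0.12, the latter -0.24 without KO library 1 and -0.03 without WT library 7. Xirp1 ranged from 127.9 to 327.4 CPM in KO and from 176.9 to 317.0 CPM in WT. Nrap, an anchoring protein of myofibril assembly, had -0.05, and 0.00 without WT library 8.

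The dystrophin complex was described by 9 genes, with 0 at an unadjusted p under 0.05. Dmd lay between 63.1 and 79.6 CPM in KO (median 69.8) and between 56.0 and 77.0 CPM in WT (median 67.4), with a log2 fold change of 0.07 (95% interval from 95.8% to 115.7% of WT). Utrn, which can stand in for dystrophin, lay between 33.2 and 41.0 CPM in KO (median 36.9) and between 32.2 and 41.7 CPM in WT (median 33.9). In 7 of 8 KO libraries Utrn was above the WT mean, with a log2 fold change of 0.09 (standard error 0.06, edgeR adjusted p = 0.633). Blood vessels express utrophin as well. Of 7 endothelial markers 3, and of 7 smooth muscle and pericyte markers 4, had an unadjusted p under 0.05, all higher in KO, where 4.02% of all tested genes were higher at that p. With edgeR 0 of either list passed the adjustment. DESeq2 called Notch3 of the smooth muscle and pericyte list (adjusted p = 0.00444), where it called 1.04% of all genes with an adjusted p. The Notch3 groups did not overlap (36.63 to 42.80 CPM in KO, 30.30 to 36.61 in WT), as in 0.123% of all tested genes. The endothelial markers summed to 283.5 to 324.8 CPM in KO and 257.8 to 295.2 in WT. The smooth muscle and pericyte markers summed to 373.7 to 452.5 and 364.4 to 405.0. Their part in the level of Utrn was not tested.

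Dag1 (305.1 ± 15.8 CPM in KO, 308.1 ± 15.4 in WT), Sgca (131.4 ± 8.53 and 134.4 ± 10.0) and Sgcb (102.0 ± 6.71 and 103.6 ± 6.12; SD, n = 8 per group) were nearly level, with log2 fold changes of -0.01, -0.03 and -0.02. Sspn, the sarcospan gene, had -0.07 and Dtna, which encodes α-dystrobrevin, -0.10 (edgeR adjusted p = 0.627 and 0.596). Sgcd lay between 3.97 and 6.52 CPM in KO (median 4.6) and between 3.39 and 14.1 CPM in WT (median 4.86). Its log2 fold change of -0.32 (standard error 0.24) became 0.01 without WT library 7, the library at 14.1 CPM. Nos1, the neuronal nitric oxide synthase that binds the complex through syntrophin, lay between 162.4 and 228.1 CPM in KO (median 188.6) and between 133.3 and 220.5 CPM in WT (median 194.9), with a log2 fold change of 0.02. It turned to -0.03 without KO libraries 1, 3, 5 and 8. Capn3 had 152.5 ± 9.99 CPM in KO and 150.3 ± 5.17 in WT (SD, n = 8 per group). Its exons share 7.68% of their length with Ganc on the same strand, and its counts were not whole in 16 of 16 libraries.

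The balance between paralogs was compared as the log2 ratio of the 2 genes within each library, which does not depend on how libraries are scaled. Genotype labels were permuted exactly (two-sided, 12870 assignments) for 7 such pairs, with Benjamini-Hochberg adjustment over the 7, and 0 passed. Per length, Actn2 ran at 6.32% to 9.67% of Actn3 in KO (median 8.05%) and at 5.18% to 9.03% in WT (median 6.64%). In 7 of 8 KO libraries this ratio was above the WT mean. The mean log2 ratio of KO exceeded that of WT by 0.27 (exact permutation p = 0.0298, adjusted p = 0.121), with a 95% interval of 0.03 to 0.51. Mybpc1 ran at 15.9% to 22.5% of Mybpc2 in KO (median 19.2%) and at 11.7% to 20.7% in WT (median 17.0%). Here KO exceeded WT by 0.25 (exact permutation p = 0.0345, adjusted p = 0.121, 95% interval 0.02 to 0.48), again with 7 of 8 KO libraries above the WT mean. Without WT library 1 the adjusted p of these pairs were 0.0305 and 0.0364, and without KO library 8 both were 0.0479, so the call rests on which libraries are included. Both ratios reuse the values of Actn3 and Mybpc2 given above, so they are no separate evidence of a difference.

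Myoz2 ran at 1.59% to 3.70% of Myoz1 in KO (median 2.14%) and at 1.12% to 2.63% in WT (median 1.54%). The log2 difference was 0.38 (95% interval -0.05 to 0.82, exact permutation p = 0.0794, adjusted p = 0.185). Without KO libraries 1, 3, 5 and 8 the differences of these 3 pairs were 0.41, 0.31 and 0.61 for Actn2, Mybpc1 and Myoz2, each at an adjusted p of 0.113. Myom3 against Myom2 differed by 0.17 (interval -0.26 to 0.61, 0.36 without those 4 libraries and 0.06 without KO library 6) and Actc1 against Acta1 by 0.19 (interval -0.75 to 1.13, 0.39 without them and -0.02 without KO library 4). Tmod1 against Tmod4 differed by 0.00 (interval -0.10 to 0.10). Utrn ran at 64.7% to 79.3% of Dmd per length in KO and 61.3% to 80.5% in WT, a log2 difference of 0.02 (interval -0.10 to 0.14). Merged exons place Dmd low, which raises these percentages. Before scaling by length the mean log2 ratio of Utrn to Dmd was -0.93 in KO and -0.94 in WT.

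**Figure D4:**
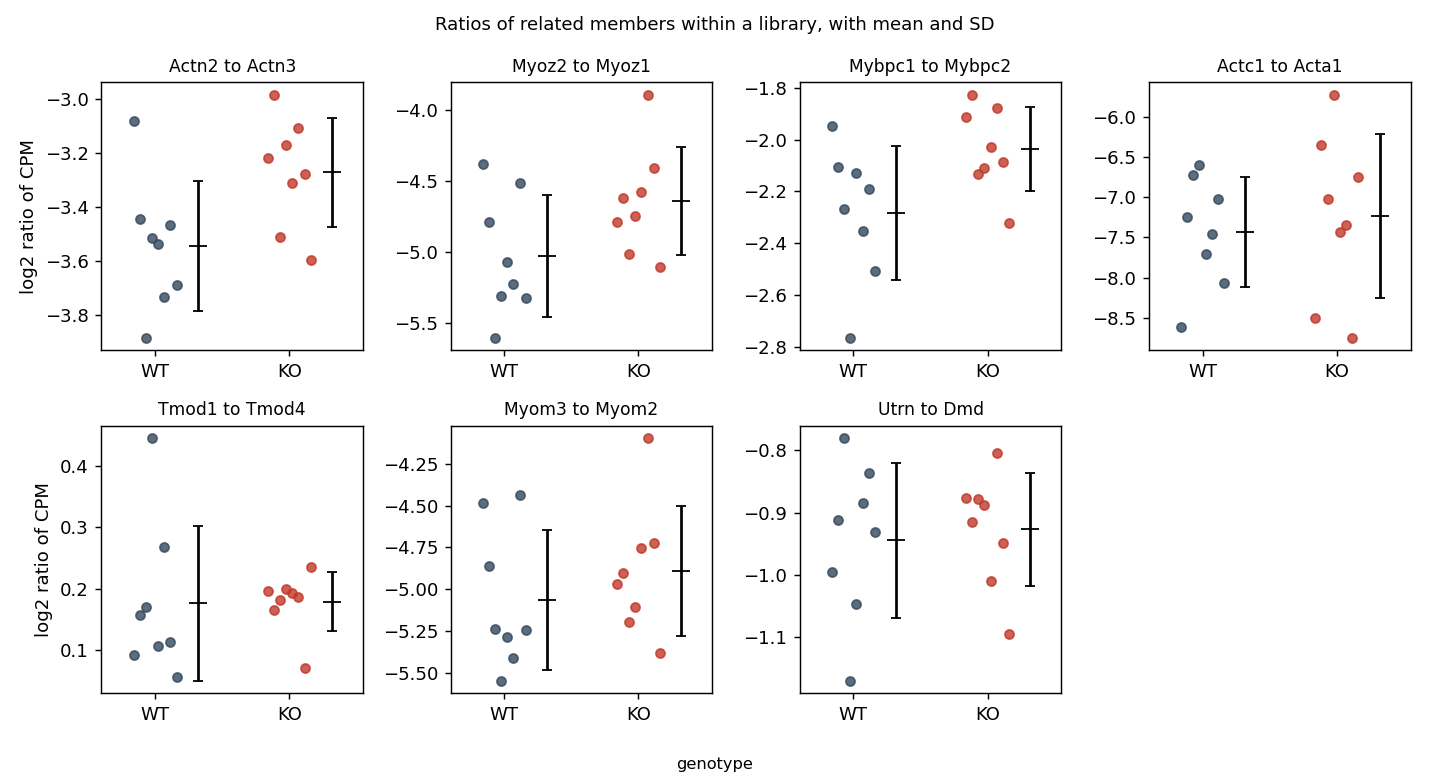
Log2 ratio of CPM of related members within each library (1 point per library), with the mean and SD beside the points. In Actn2 to Actn3, Mybpc1 to Mybpc2 and Myoz2 to Myoz1 7 of 8 KO libraries lie above the WT mean, and in all 7 pairs the groups overlap.

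The paralog pairs raised the question of how members listed as slow-linked vary beside Myh7, the slow myosin heavy chain, which is no member. Myh7 lay between 159.5 and 310.8 CPM in KO (median 274.4) and between 34.1 and 348.0 CPM in WT (median 185.7). The list of 7 is a loose one: it includes Actn2, the α-actinin of all fibres, and Actc1, the actin of the embryonic and heart sarcomere. Of these 7 members, compared with Myh7 over all 16 libraries, 2 passed a permutation test with adjustment over the 7. Myoz2 had a Pearson's r of 0.75 (permutation p = 0.00052, adjusted p = 0.00364) and a Spearman's rho of 0.71 (permutation p = 0.00274, adjusted 0.00959). For Mybpc1 r was 0.64 (permutation p = 0.0102, adjusted p = 0.0358) and rho 0.76 (permutation p = 0.00116, adjusted 0.00812). Without the 2 libraries farthest from the median of Myh7, WT libraries 3 and 8, r was 0.62 for Myoz2 and 0.78 for Mybpc1. Within KO r was 0.45 and 0.53, and within WT 0.80 and 0.64, with 8 libraries each and 0 of these 4 passing the adjustment.

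The other 5 did not pass over all 16 libraries. For Actn2 and Myom3 r was 0.48 and 0.50 (rho 0.50 and 0.52), with adjusted permutation p of 0.1003 for r and 0.0890 for rho in both. Csrp3 (r 0.05, rho -0.15) and Actc1 (r -0.00, rho -0.11) gave adjusted permutation p of 0.997 for r. Tmod1 had r -0.19 and rho -0.42 over 16 libraries, and r -0.74 without WT libraries 3 and 8 (permutation p = 0.00192, adjusted p = 0.00672), so its relation depends on those 2 libraries. Within KO its r was -0.72 and within WT 0.07.

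**Figure D5:**
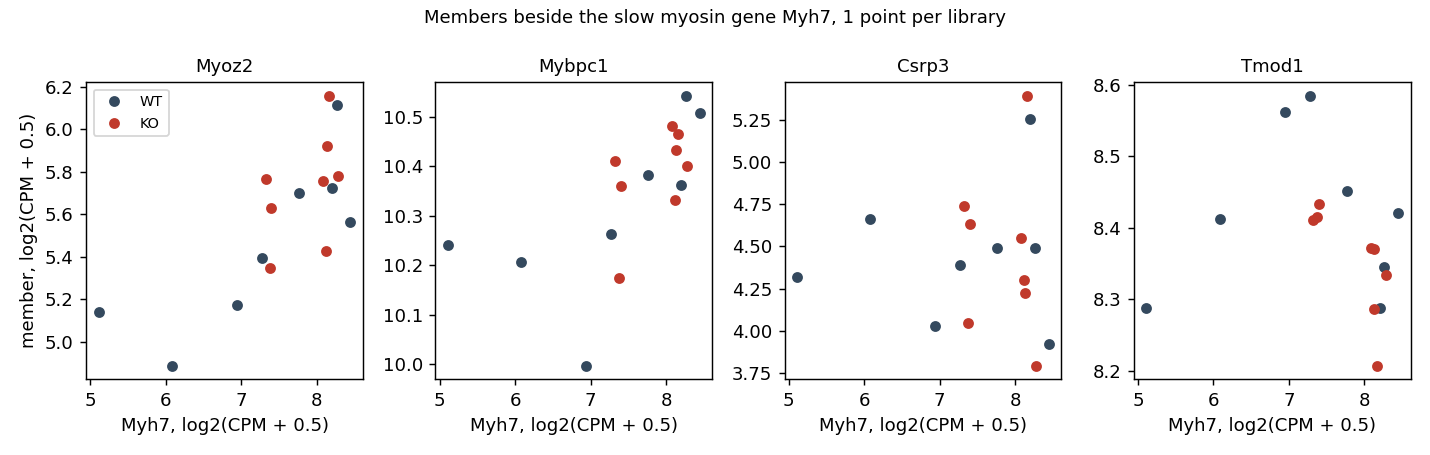
Log2(CPM + 0.5) of 4 members against that of Myh7, 1 point per library for 8 WT and 8 KO libraries. Myoz2 (r 0.75) and Mybpc1 (r 0.64) are high where Myh7 is high, Csrp3 (r 0.05) is not, and in Tmod1 (r -0.19) WT libraries 3 and 8 lie apart at low Myh7.

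Spread between libraries was similar to that of other genes. The SD of log2(CPM + 0.5) over the 8 WT libraries had a median of 0.15 over the 46 members and 0.15 over all tested genes, and over the 8 KO libraries 0.13 and 0.15. It was smallest in WT for Capn3 (0.05), Myom1 (0.05) and Des (0.06). It was largest in WT for Mybph (0.93), Actc1 (0.71) and Sgcd (0.59), and in KO for Actc1 (1.09).

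Of other genes of the sarcomere and the dystrophin complex from a separate list, 101 were found in the table and 97 were tested, and edgeR and limma called 0 of them. In the edgeR fit 10 of the 97 had an unadjusted p under 0.05, 8 lower and 2 higher in KO, near the background of 9.57%. DESeq2 called 3 of the 88 for which it gave an adjusted p, all lower in KO, against 1.04% of all 9246 genes with one. Whether that count stands apart from other genes was not tested. Smyd1, a methyltransferase of myosin assembly, lay between 416.1 and 481.0 CPM in KO (median 471.1) and between 486.4 and 573.8 CPM in WT (median 528.2). It was the 1 gene of the list whose groups did not overlap, while 0.123% of all tested genes had such groups. Its log2 fold change was -0.19 (standard error 0.04, adjusted p = 0.148 with edgeR and 0.00444 with DESeq2). Klhl40, which stabilises leiomodin 3 and nebulin, had -0.20 (adjusted p = 0.180 and 0.0155), with means of 96.8 ± 5.75 CPM in KO and 111.1 ± 8.53 in WT (SD, n = 8 per group). In both genes 8 of 8 KO libraries were below the WT mean.

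By role, 0 of 24 other Z disc genes, 0 of 15 other thin filament genes, 0 of 9 genes of sarcomere chaperones and assembly, 0 of 21 other costamere genes and 0 of 28 other genes of the dystrophin complex and its glycosylation were called with edgeR. The gene with the smallest p was Klhl40 among the thin filament genes and Smyd1 among the assembly genes. It was Trim54 (log2 fold change -0.13), a ligase, among the Z disc genes and Dst (-0.10), a cytoskeletal linker, among the costamere genes. Of the 97 genes 92 (94.8%) had intervals inside a 1.5-fold change, against 86.2% of all tested genes. The count at an unadjusted p under 0.05 was 17 without WT library 7, 6 without KO library 2 or WT library 5, and 5 without KO library 6. For the 46 members that count was 8 without WT library 7. The shares of all genes at that p in these fits are not given here, so the counts may move with all genes.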

How the data were processed

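Polyadenylated RNA was measured in 8 KO and 8 WT quadriceps libraries. The authors deposited gene-level estimated counts. Salmon, STAR, bcl2fastq 4.0.3 and build GRCm38 are named, without roles, per the submitters' processing notes. The annotation release, other versions and strand setting were not given in the sources used here. Of the values 5.96% were not whole (tolerance 0.01), and all were rounded. KO and WT were compared over 13792 genes with edgeR 4.0.16 (R 4.3.3), with its quasi-likelihood test, TMM, the default filter and no covariate. The genes left out held 0.0705% of counts. Adjusted p are Benjamini-Hochberg values over all tested genes. Standard errors were derived from each gene's F statistic. Ratios and correlations used log2(CPM + 0.5), with 100000 resamples for correlations over 16 libraries and all orders for 8. Intervals of ratio differences hold the shifts the exact test does not reject. Merged exon lengths and coordinates came from GENCODE vM21. Depth was 16065394 to 51881258 counts per library. The largest standard errors of the 46 were those of Actc1 (0.39), Mybph (0.31) and Sgcd (0.24), and of these Sgcd had the lowest level.

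Alternatives were 3 scalings, 2 filters, DESeq2 1.42.0, limma 3.58.1, the replicate number as a block, RIN as a covariate, a pseudocount of 0.05 for ratios, and leaving out libraries. Members and lists were chosen with earlier results of these data known. Named members are those called by any tool or with an unadjusted p under 0.05, the 2 most abundant per length and the 2 with the smallest p in each role, and those of the pairs and the slow-linked list; others named, such as Sgcd, Mybph and Xirp1, were chosen after their values were seen. Marker lists not reported above (fibro-adipogenic, macrophage, satellite, tendon, nerve, adipocyte and red cells) had 0 called genes, and at an unadjusted p under 0.05 only 1 gene, Pax7 of the 4 satellite cell markers, higher in KO. A related gene that the naming rule selects is not reported here.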

Additional observations from a re-analysis of the deposited data

Results flagged for a closer look

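In 10 cases 1 library lay far from the other 7 of its genotype by Dixon's ratio, out of 106 groups examined, where chance gives about 1 in 20. KO library 6 held the highest KO values of Tcap (1757 CPM, next 1349) and Csrp3 (41.6 CPM, next 26.3) and the lowest of Tmod4 (259.2 CPM, next 287.6). WT library 7 held the highest WT values of Csrp3 (37.8 CPM, next 24.8) and Sgcd (14.1 CPM, next 6.65) and the lowest of Myoz1 (1204 CPM, next 1411). Actn3 was lowest in KO library 2 (6257 CPM, next 7412), Pdlim5 highest in WT library 4 (391.0 CPM, next 317.3) and Capn3 lowest in WT library 1 (140.2 CPM, next 148.7). The log2 ratio of Tmod1 to Tmod4 was lowest in KO library 7 (0.070, next 0.16).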

How the results depend on the processing

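The count of 0 called members held in 25 of the 26 other fits and became 1 with DESeq2, and that of the related genes 0 in 25 of 26 and 3 with DESeq2. Leaving out 1 library gave 4 to 8 members and 5 to 17 related genes at an unadjusted p under 0.05. The share of all tested genes at that p in each of these fits, and with the replicate block below, is not given here. The same-numbered libraries share only a number: their deviations from the group means correlated between -0.0981 and 0.237, with 3 of 8 pairs over 0.1, and 2 of 8 KO libraries were closest to their own number. With the replicate block 0 members were called and 7 had an unadjusted p under 0.05, and the paired ratios of Actn2 to Actn3 and Mybpc1 to Mybpc2 had adjusted p of 0.082 and 0.0547 by exact sign changes.

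Without 1 library the log2 ratio differences ran from 0.22 to 0.34 for Actn2 to Actn3, 0.18 to 0.29 for Mybpc1 to Mybpc2, 0.28 to 0.48 for Myoz2 to Myoz1, 0.059 to 0.26 for Myom3 to Myom2, -0.022 to 0.41 for Actc1 to Acta1, -0.015 to 0.041 for Tmod1 to Tmod4 and -0.015 to 0.042 for Utrn to Dmd. Without KO libraries 1, 3, 5 and 8 Tmod1 to Tmod4 turned to -0.021, Ttn to -0.028, Mybph to 0.048, Pdlim7 to -0.014 and Nos1 to -0.033. The log2 fold change of Lmod3 turned to 0.0046 with upper-quartile scaling, 0.011 with library totals, 0.0058 with limma and 0.00618 with the replicate block, the log2 fold change of Mybph to 0.027 with limma and 0.011 with the replicate block, and the log2 fold change of Pdlim3 to 0.000982 with RIN. The cause was not tested. Correlations with Myh7 within KO and WT were 0.45 and 0.80 for Myoz2 and 0.53 and 0.64 for Mybpc1, none passing, -0.082 within KO for Csrp3, and for Tmod1 0.072 within WT and -0.74 without WT libraries 3 and 8.

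Leaving out 1 library also turned the sign of some fold changes near 0: Acta1 (-0.035 to 0.051), Lmod3 (-0.046 to 0.037), Obsl1 (-0.12 to 0.013), Mybph (-0.26 to 0.026), Csrp3 (-0.15 to 0.19), Myot (-0.027 to 0.034), Pdlim3 (-0.053 to 0.026), Pdlim7 (-0.025 to 0.060), Nrap (-0.089 to 0.0021), Dag1 (-0.030 to 0.0038), Sgcb (-0.040 to 0.0025), Sgcd (-0.40 to 0.0072) and Nos1 (-0.041 to 0.053). Without a change of sign, Xirp1 ran from -0.24 to -0.028, Lmod2 from 0.0018 to 0.15, Myom3 from 0.0010 to 0.18, Actc1 from 0.067 to 0.60, Ttn from 0.055 to 0.20, Tcap from -0.13 to -0.017 and Neb from -0.079 to -0.0024.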
